A study of Mus musculus with 68 samples.

Results

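The genes described here are Igf1r, the receptor of insulin-like growth factor 1 (IGF1), and the genes of the proteins that act next to it or just below it inside the cell. There are 10 of them among the 30142 genes measured: the receptors Igf1r and Igf2r, the adaptors Irs1, Irs2 and Shc1, the receptor-binding inhibitors Grb10 and Grb14, and Pik3r1, Pik3ca and Akt1 of the PI3-kinase branch. They were taken by name, and each had exactly 1 probe set on the array annotated to its symbol alone. RNA came from the uterus of ovariectomized mice, which lack ovarian hormones, on 68 arrays in 25 groups, of which 18 hold 3 arrays and 7 hold 2. The deposited design says that the missing array of a group with 2 was left out after a principal component analysis, so the spread in those groups may be understated.

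All mice were of the C57Bl6 strain, and their ages are not given in the labels. They form 3 mouse sets. The C57 set was wild type and bought from a vendor (14 arrays). The second set holds Ex3aERKO mice, which are null for Esr1, the gene of oestrogen receptor alpha (11 arrays), with wild-type littermates (14 arrays). The last set holds ERaUtcKO mice, genotype Esr1f/f;PgrCre+, in which Cre driven by the progesterone receptor gene removes a floxed Esr1 only in cells that have used that gene (15 arrays), with wild-type littermates (14 arrays). In every genotype the uterus was taken 2 h or 24 h after oestradiol (E2, 250 ng injected in saline), 2 h or 24 h after IGF1, or 24 h after saline vehicle. The labels give IGF1 as an injection of 50 µg or as an implanted osmotic pump holding 0.5 mg/ml, and do not say which mice had which. There was no vehicle group at 2 h, so at 2 h the hormone and the shorter time since treatment cannot be told apart.

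The IGF1 receptor is a tyrosine kinase. When IGF1 binds, it phosphorylates the adaptors IRS1, IRS2 and SHC1. The IRS proteins recruit PI3-kinase, whose regulatory subunit p85 (Pik3r1) holds the catalytic subunit p110 (Pik3ca), and PI3-kinase switches on the kinase AKT. AKT keeps the FOXO transcription factors out of the nucleus, and since FOXO factors activate Irs2 and Igf1r in several tissues, signalling through the pathway is known to lower the genes of its own receptor and adaptor. GRB10 and GRB14 bind the activated receptor and inhibit it, and IGF2R takes IGF2 to the lysosome without a kinase of its own. In the uterus E2 induces IGF1, which takes part in the growth that E2 causes.

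Values are the log2 intensities deposited by the authors, and differences are on that log2 scale, with the standard error of the limma fit. A gene is called at an adjusted p under 0.05, over all 30142 genes. The median of all values of an array lay between 6.43 and 6.60 in the C57 set, 5.82 and 6.15 in the Ex3aERKO set and 6.26 and 6.62 in the ERaUtcKO set, so every comparison is within a set or has the set as a model term. Arrays give no read depth, and their number limits the precision. Every member's mean was above the 95th percentile of the antigenomic background probe sets in all 25 groups. Grb14 came closest, with a lowest group mean of 7.10 against 6.89 in the C57 set. Under vehicle Esr1 differed from littermates by -2.39 ± 0.19 in Ex3aERKO (adjusted p = 1.8e-06) and by -1.21 ± 0.11 in ERaUtcKO (adjusted p = 3.66e-07), and its lowest knockout value was 9.38, so the probe set still gave signal in both.

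Markers of uterine epithelium (5 of 5), stroma (4 of 4 measured), smooth muscle (5 of 5) and endothelium (5 of 5) were above background in every group. The arrays read whole tissue, in which fewer cells of a type and less RNA per cell cannot be told apart. The mean of the epithelial markers was higher at 24 h of E2 than under vehicle in wild types (13.5 against 11.7 in C57, 13.9 against 11.3 in the Ex3aERKO littermates), and that of the stromal markers was low at 2 h of E2 (10.7 against 12.7 under vehicle in C57). The mean of the smooth muscle markers was higher after hormone than under vehicle in wild types, except at 2 h of E2 in the Ex3aERKO littermates (14.3 against 14.4). It was highest at 24 h of IGF1 (17.1 against 15.7 under vehicle in C57, 15.6 against 14.4 in the Ex3aERKO littermates, 16.0 against 14.1 in the ERaUtcKO littermates). It was also higher at 24 h of IGF1 in ERaUtcKO (16.0 against 14.4) and, with overlapping arrays, in Ex3aERKO (14.6 against 13.9). The part of these shifts in the members' differences was not tested. The mean of the 5 adipocyte markers ran from 6.21 to 11.1 over the arrays. The mean of the 4 liver markers was 10.3 to 12.3 on the C57 vehicle arrays and 6.65 to 10.1 on the C57 hormone arrays. It was 7.64 to 10.4 against 6.73 to 8.12 in the ERaUtcKO littermates, and 5.28 to 5.71 on all arrays of the Ex3aERKO set, where at most 1 of the 4 was above background in a group.

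In wild-type uterus most members changed with each hormone (42 arrays, 8 of them vehicle, with the set as a term). At 2 h of E2, 8 of 10 were called, 1 higher and 7 lower, when 40% of all genes were called (17.2% higher, 22.8% lower). Their median difference was -0.50, against -0.05 over all genes. At 24 h of E2 the count was 9, 3 higher and 6 lower, at a background of 56.2% (24.5% higher, 31.7% lower). For IGF1 it was 9 of 10 at both times, 4 higher and 5 lower each time, with 35.9% of all genes called at 2 h (16.9% higher, 19% lower) and 40.9% at 24 h (19.3% higher, 21.6% lower). Irs2, Igf1r, Grb14 and Pik3ca fell in all 4 comparisons and Akt1 rose in all 4. Pik3r1 fell with E2 and rose with IGF1, a rise that was called in no single set (at 24 h not a rise under quantile normalization). Within the C57 set alone 7 of 10 members were called at 2 h of E2, 10 at 24 h of E2, 7 at 2 h of IGF1 and 7 at 24 h of IGF1, with 29.6%, 36.3%, 22.8% and 25.9% of all genes called. In the Ex3aERKO littermates the counts were 6, 7, 7 and 1 (20.6%, 28.9%, 18.1% and 5.37%), and in the ERaUtcKO littermates 7, 8, 6 and 6 (32.1%, 54.6%, 20.9% and 43.5%). The map of group differences shows these directions for each genotype.

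**Figure D1:**
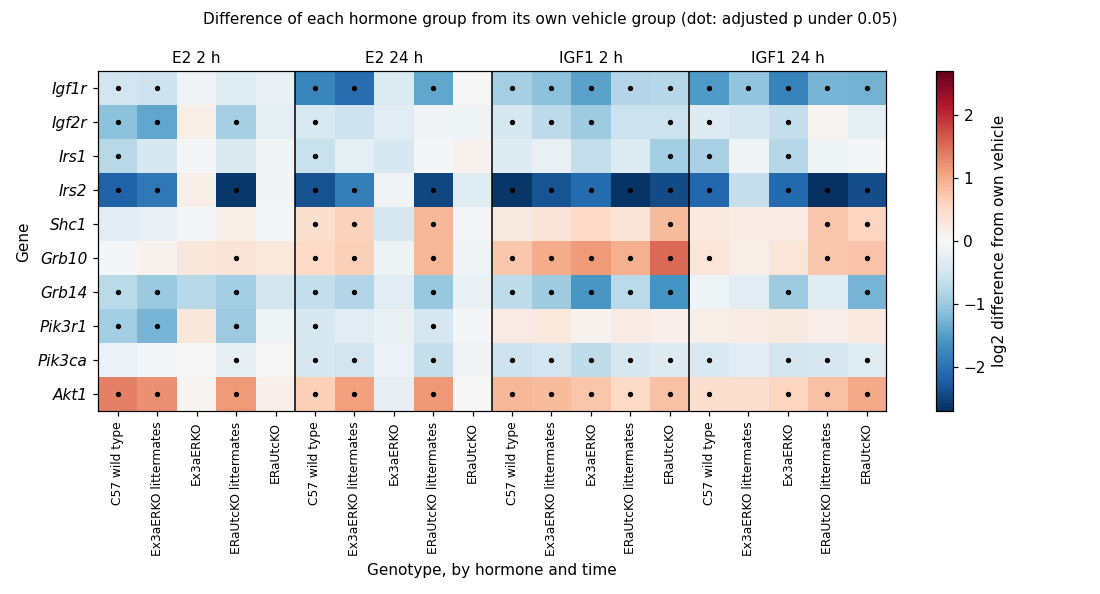
Difference of each hormone group's mean from the vehicle mean of its own genotype (log2, colour scale) for the 10 members (rows), in 5 genotypes for each hormone and time (columns), with a dot where the adjusted p is under 0.05. The Irs2 row is dark blue in every IGF1 column but the Ex3aERKO littermates at 24 h (-0.62), and the Ex3aERKO and ERaUtcKO columns hold no dot for E2.

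Igf1r was lowest after 24 h of E2 in wild types. In C57 mice its values were 12.60, 12.45 and 12.41 under vehicle, 12.01, 12.11 and 11.86 at 2 h of E2 and 10.75, 10.73 and 10.67 at 24 h. With IGF1 they were 11.60 and 11.60 at 2 h (the same deposited value on both arrays) and 11.23, 10.82 and 10.83 at 24 h. Every hormone array lay below every vehicle array, and the same was so in both littermate groups. The E2 difference was -0.46 ± 0.10 at 2 h (adjusted p = 0.000327) and -1.74 ± 0.10 at 24 h (adjusted p = 1.86e-17). With IGF1 it was -0.93 ± 0.11 at 2 h (adjusted p = 5.21e-09) and -1.27 ± 0.10 at 24 h (adjusted p = 1.47e-12). Over the sets Igf1r was higher after E2 than after IGF1 at 2 h and lower at 24 h, since E2 minus IGF1 was 0.47 ± 0.11 (adjusted p = 0.000736) and -0.47 ± 0.10 (adjusted p = 0.000321). Within single sets it was called only in C57 at 2 h and only in the Ex3aERKO littermates at 24 h. At 2 h the Ex3aERKO littermates gave 0.53 (adjusted p = 0.0618) and the ERaUtcKO littermates 0.45 (adjusted p = 0.0864). At 24 h C57 gave -0.24 (adjusted p = 0.189) and the ERaUtcKO littermates -0.16 (adjusted p = 0.564). The epithelial markers were high on the 24 h E2 arrays of the same wild types, and their part in the fall of Igf1r was not tested.

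In the knockouts Igf1r fell with IGF1 and was not called with E2. In ERaUtcKO uterus it read 12.66, 12.60 and 12.39 under vehicle and 12.83, 12.34 and 12.45 at 24 h of E2. After IGF1 it read 11.83, 11.69 and 11.80 at 2 h and 11.41, 11.39 and 11.05 at 24 h. E2 and vehicle arrays overlapped, and all IGF1 arrays were lower. The IGF1 differences were -0.78 ± 0.14 and -1.27 ± 0.14 in ERaUtcKO and -1.45 ± 0.21 and -1.80 ± 0.19 in Ex3aERKO, all called. In Ex3aERKO both arrays at 24 h of E2 (11.97 and 12.04) lay below both vehicle arrays (12.55 and 12.21), and the difference of -0.38 ± 0.21 was not called. The E2 difference at 24 h minus that of littermates was 1.69 ± 0.28 in Ex3aERKO (adjusted p = 0.000417) and 1.40 ± 0.20 in ERaUtcKO (adjusted p = 9.62e-06). Under vehicle Igf1r was higher in ERaUtcKO than in littermates by 0.92 ± 0.14 (adjusted p = 0.000316), with no overlap between 3 and 3 arrays, and by 0.55 ± 0.21 in Ex3aERKO, which was not called (adjusted p = 0.209).

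**Figure D2:**
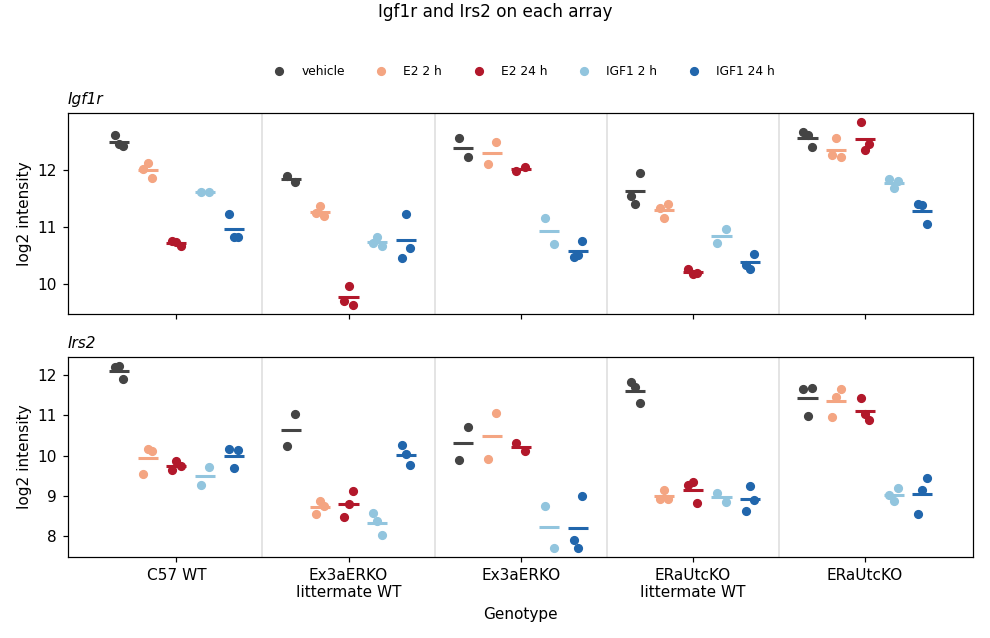
Log2 intensity of Igf1r (upper panel) and Irs2 (lower panel) on each of the 68 arrays (points), by genotype and coloured by treatment, with bars for group means and a separate scale for each gene. In ERaUtcKO the Irs2 points of vehicle and E2 lie between 10.88 and 11.68 and those of IGF1 between 8.55 and 9.44.

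Igf2r, the clearance receptor, fell most at 2 h of E2. Its C57 values ranged from 11.56 to 11.70 under vehicle and from 10.41 to 10.62 at 2 h of E2, and in the Ex3aERKO littermates from 10.79 to 10.95 and from 9.37 to 9.62. The groups did not overlap in any of the 3 wild-type sets. The difference over the sets was -1.12 ± 0.10 at 2 h (adjusted p = 7.88e-13) and -0.33 ± 0.10 at 24 h (adjusted p = 0.00321). With IGF1 it was -0.55 ± 0.10 at 2 h (adjusted p = 3.08e-05) and -0.23 ± 0.10 at 24 h, which was not called (adjusted p = 0.0551). The last was called with quantile normalization (-0.37, adjusted p = 0.00139), the filter on low values (adjusted p = 0.0449) and the adipocyte covariate (adjusted p = 0.0377). It was also called without IGF1 2 h replicate 2 or IGF1 24 h replicate 2 of the Ex3aERKO littermates, or vehicle replicates 1 or 2 or IGF1 24 h replicate 3 of the ERaUtcKO littermates (adjusted p of 0.0131 to 0.0455). The E2 response at 2 h differed between Ex3aERKO and littermates by 1.56 ± 0.31 (adjusted p = 0.00282). In ERaUtcKO that difference was 0.62 ± 0.27 and was not called (adjusted p = 0.145).

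Irs2, the adaptor through which the receptor reaches PI3-kinase, had the largest differences of the 10. In C57 mice its values were 12.21, 12.23 and 11.89 under vehicle. They were 9.55, 10.16 and 10.11 at 2 h of E2 and 9.64, 9.87 and 9.74 at 24 h. With IGF1 they were 9.27 and 9.71 at 2 h and 10.16, 9.68 and 10.13 at 24 h. All hormone arrays lay more than 1 log2 unit below all vehicle arrays. In the ERaUtcKO littermates vehicle arrays read 11.82, 11.71 and 11.29, and all 11 hormone arrays lay from 8.62 to 9.34. Over the 3 sets the 95% interval of the difference was -2.68 to -1.90 at 2 h of E2, -2.67 to -1.89 at 24 h of E2, -3.03 to -2.20 at 2 h of IGF1 and -2.25 to -1.48 at 24 h of IGF1. Over the sets E2 minus IGF1 was not called for Irs2 at 2 h (0.33 ± 0.20, adjusted p = 0.29) or 24 h (-0.41 ± 0.19, adjusted p = 0.0961). The 24 h difference was called in the Ex3aERKO littermates alone (-1.23, adjusted p = 0.0023) and with quantile normalization (-0.50, adjusted p = 0.049). It was also called without IGF1 24 h replicate 1 of the ERaUtcKO littermates (-0.52, adjusted p = 0.0262).

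The Ex3aERKO littermates were the exception at 24 h of IGF1. There Irs2 read 10.24 and 11.04 under vehicle, 8.58, 8.36 and 8.01 at 2 h of IGF1 and 10.27, 10.04 and 9.76 at 24 h. The 24 h arrays overlapped vehicle, and the difference of -0.62 ± 0.40 was not called (adjusted p = 0.482). In C57 mice it was -2.12 ± 0.19 and in the ERaUtcKO littermates -2.69 ± 0.23. Of the 10 members, Irs2 at 24 h of IGF1 was the only case in which the wild-type response was called as differing between the sets (adjusted p = 0.00122), with 5.56% of all genes called. limma called 0 of the 10 in the other 3 tests between sets, with 1 (E2 at 2 h), 3 (E2 at 24 h) and 0 (IGF1 at 2 h) under an unadjusted p of 0.05, at backgrounds of 2.07% for E2 at 2 h, 16.2% for E2 at 24 h and 1.14% for IGF1 at 2 h. Grb10 joined Irs2 at 24 h of IGF1 without any of 8 arrays (adjusted p of 0.0366 to 0.0499): C57 vehicle replicate 3 or IGF1 24 h replicate 2, Ex3aERKO littermate IGF1 2 h replicates 1 or 2 or IGF1 24 h replicate 1, or ERaUtcKO littermate vehicle replicate 3 or IGF1 2 h replicates 1 or 2. Igf2r joined it without Ex3aERKO littermate IGF1 24 h replicate 2 (adjusted p = 0.0417). Without that ERaUtcKO littermate vehicle array Irs1 was called as well (adjusted p = 0.0279). Igf1r was called at 24 h of E2 without any of 3 (adjusted p of 0.015 to 0.0469): Ex3aERKO littermate E2 24 h replicate 2 or IGF1 24 h replicate 2, or ERaUtcKO littermate vehicle replicate 3. In these Ex3aERKO littermates at 24 h of IGF1 only Igf1r was called among the 10 (background 5.37%).

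In the knockouts Irs2 fell with IGF1 and was not called with E2. In ERaUtcKO it read 11.64, 10.99 and 11.68 under vehicle, 10.97, 11.46 and 11.65 at 2 h of E2, 9.01, 8.86 and 9.20 at 2 h of IGF1 and 8.55, 9.14 and 9.44 at 24 h of IGF1. E2 overlapped vehicle, and every IGF1 array was lower than every vehicle or E2 array. In Ex3aERKO the vehicle arrays read 9.89 and 10.71, the IGF1 arrays 8.75 and 7.70 at 2 h and 7.91, 7.70 and 8.99 at 24 h. The IGF1 differences were -2.41 ± 0.23 and -2.40 ± 0.23 in ERaUtcKO (adjusted p = 2.04e-08 and 5.52e-08), and -2.07 ± 0.44 and -2.10 ± 0.40 in Ex3aERKO (adjusted p = 0.00247 and 0.00108). With E2 they were -0.08 ± 0.23 and -0.32 ± 0.23 in ERaUtcKO and 0.18 ± 0.44 and -0.09 ± 0.44 in Ex3aERKO, none called. The liver markers were higher under vehicle than after hormone in the C57 set, and in ERaUtcKO their mean was 8.95, 11.92 and 12.20 on the vehicle arrays against 7.52 to 8.41 at 24 h of IGF1. In the Ex3aERKO set these markers were at or near background on every array. In its littermates the Irs2 differences at 2 h and 24 h were -1.92 ± 0.40 and -1.85 ± 0.40 with E2. With IGF1 they were -2.32 and -0.62, the last not called. The part of the liver markers in the Irs2 differences was not tested in any set. Replicate 1 at 2 h of IGF1 in ERaUtcKO stood apart with a liver mean of 14.04. Without it 8 members were called there, Irs2 was -2.41, and Igf2r was -0.48 and no longer called (adjusted p = 0.108).

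The E2 difference of Irs2 in ERaUtcKO minus that in littermates was 2.53 ± 0.33 at 2 h (adjusted p = 8.39e-06) and 2.14 ± 0.33 at 24 h (adjusted p = 2.65e-05). In Ex3aERKO the differences were 2.10 ± 0.59 (adjusted p = 0.0286) and 1.76 ± 0.59 (adjusted p = 0.0481). These Ex3aERKO calls were fragile: at 2 h the call was lost without either of 2 Ex3aERKO arrays (vehicle replicate 2, E2 2 h replicate 3) or any of 3 littermate arrays (vehicle replicate 3, E2 2 h replicates 1 and 3), with a highest adjusted p of 0.177. At 24 h it was lost without any of 16 of the 25 arrays, with a highest adjusted p of 0.209 without littermate vehicle replicate 3. The 9 arrays whose removal kept that call were E2 24 h replicate 3 and vehicle replicate 2 of the littermates, and vehicle replicate 3, both arrays at 2 h of E2, both at 2 h of IGF1 and replicates 2 and 3 at 24 h of IGF1 of Ex3aERKO. Centring arrays on their median also ended it (1.64, adjusted p = 0.0679).

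The sequence just upstream of Irs2 and of Irs1 is shown because FOXO factors are known to act through the letters CAAAACA, also called the insulin response sequence, and that of Igf1r because it fell in the same wild-type comparisons. The letters are from RefSeq (build GRCm38.p6), 250 bases before the annotated start of each gene, 5′ to 3′ on the gene's strand, and capitals mark CAAAACA read on the opposite strand.
Irs2, chr8:11008930-11009179, minus strand: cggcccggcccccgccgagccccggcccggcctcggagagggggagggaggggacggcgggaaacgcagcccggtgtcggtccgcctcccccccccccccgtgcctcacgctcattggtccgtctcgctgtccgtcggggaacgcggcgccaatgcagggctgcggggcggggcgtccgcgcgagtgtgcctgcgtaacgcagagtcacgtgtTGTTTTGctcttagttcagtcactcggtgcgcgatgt
Irs1, chr1:82291440-82291689, minus strand: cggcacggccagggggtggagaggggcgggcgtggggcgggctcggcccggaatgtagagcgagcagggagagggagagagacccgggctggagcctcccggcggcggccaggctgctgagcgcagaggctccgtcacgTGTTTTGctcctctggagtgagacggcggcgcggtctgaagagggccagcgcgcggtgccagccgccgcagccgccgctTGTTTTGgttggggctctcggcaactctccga
Igf1r, chr7:67952007-67952256, plus strand: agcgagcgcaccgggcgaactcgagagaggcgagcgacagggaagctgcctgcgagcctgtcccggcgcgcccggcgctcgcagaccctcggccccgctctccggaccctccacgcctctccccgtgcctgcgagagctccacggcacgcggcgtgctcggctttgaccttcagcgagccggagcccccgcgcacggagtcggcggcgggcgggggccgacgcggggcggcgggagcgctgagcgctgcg
The match in Irs2 lies 37 to 31 bases before the start, those in Irs1 111 to 105 and 32 to 26 bases before it, and the Igf1r window holds none. Over windows of the 250 bases before a start, with both strands read, CAAAACA was found in 5.56% of 32851 windows. The 10 members have 14 such windows, as some have more than 1 start. CAAAACA was in 2 of these 14 (Irs1 and Irs2). GTAAACA was found in 3.17% of all windows and in 1 of the 14 (Akt1). The palindromic oestrogen response element was in 0.0639% and in none of the 14. AGGTCA, which can overlap it, was in 14.02% and in 3 of the 14 (Akt1, Igf1r and Igf2r). TGANTCA, bound by AP1, was in 6.75% and in 2 of the 14 (Pik3ca and Shc1). TGACGTCA was in 1.55% and in none of the 14. GGGCGG, bound by SP1, was in 32.7% and in 10 of the 14, 1 for each member. A match of letters is a description and not a site of binding.

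Irs1, the other IRS adaptor, changed less than Irs2 and unevenly between the sets. C57 arrays ranged from 12.30 to 12.64 under vehicle, 11.67 to 11.78 at 2 h of E2 and 11.55 to 11.61 at 24 h of IGF1, with no overlap. In the ERaUtcKO littermates vehicle arrays spread from 9.81 to 10.80 and overlapped each hormone group. Over the sets it fell with E2 at 2 h (-0.54 ± 0.14, adjusted p = 0.00174) and with IGF1 at 24 h (-0.37 ± 0.14, adjusted p = 0.0328). Without any of the 3 IGF1 24 h arrays or the first or second vehicle array of C57, or the third vehicle array of the ERaUtcKO littermates, the second call was lost, with adjusted p of 0.0595 to 0.091, as it was with arrays centred on their median (adjusted p = 0.0927). The value of -0.32 ± 0.14 at 24 h of E2 was not called (adjusted p = 0.053), but was in 14 of 53 alternatives. Quantile normalization gave -0.57 (adjusted p = 0.000348), and 9 of the 14 left out a single array: E2 24 h replicate 3 of C57, vehicle replicate 3, E2 24 h replicate 2 or IGF1 2 h replicates 2 or 3 of the Ex3aERKO littermates, or vehicle replicates 1 or 2, E2 24 h replicate 3 or IGF1 2 h replicate 1 of the ERaUtcKO littermates (adjusted p of 0.0187 to 0.0493). The value of -0.32 ± 0.15 at 2 h of IGF1 was not called either (adjusted p = 0.0982). It was called with quantile normalization (-0.45, adjusted p = 0.0104), without IGF1 2 h replicate 3 of the Ex3aERKO littermates (adjusted p = 0.034) and without vehicle replicate 2 of the ERaUtcKO littermates (adjusted p = 0.0391).

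With IGF1 in the knockouts, Irs1 was called at different times. In ERaUtcKO it read 9.78, 10.05 and 9.85 under vehicle, 8.85, 8.81 and 9.30 at 2 h and 10.08, 9.77 and 9.73 at 24 h. The 2 h arrays were all lower and the 24 h arrays overlapped vehicle, with differences of -0.91 ± 0.22 (adjusted p = 0.0021) and -0.04 ± 0.22 (adjusted p = 0.924). In Ex3aERKO it read 10.004 and 9.58 under vehicle, 8.98 and 9.33 at 2 h and 8.86, 9.12 and 9.12 at 24 h, all below vehicle. The differences were -0.64 ± 0.28, not called (adjusted p = 0.147), and -0.76 ± 0.26 (adjusted p = 0.0448). The 24 h call was lost without any of 12 arrays (adjusted p of 0.05 to 0.375): any Ex3aERKO array under vehicle, at 2 h of E2 or at 24 h of IGF1, or littermate E2 2 h replicates 1 or 3, E2 24 h replicate 3, IGF1 2 h replicate 1 or IGF1 24 h replicate 3.

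Shc1, which links the receptor to RAS and ERK, moved the other way at 24 h of E2. The C57 arrays read 11.33 to 11.41 under vehicle and 11.71 to 11.90 at 24 h of E2, and in ERaUtcKO littermates from 8.88 to 9.22 and 9.86 to 10.01. The groups did not overlap in any wild-type set. Its difference was 0.66 ± 0.09 at 24 h of E2 (adjusted p = 1.29e-07), and -0.10 ± 0.09 at 2 h, not called. With IGF1 it rose by 0.34 ± 0.10 at 2 h and 0.41 ± 0.09 at 24 h (adjusted p = 0.00581 and 0.000465). Within single sets the 2 h rise was not called (adjusted p of 0.195 to 0.24), and arrays overlapped vehicle in the ERaUtcKO littermates. The 24 h rise was not called in C57 (0.27, adjusted p = 0.128) or the Ex3aERKO littermates (0.19, adjusted p = 0.694), and arrays overlapped vehicle in both. In Ex3aERKO the 24 h E2 value pointed the other way: both arrays, 8.62 and 8.85, lay below both vehicle arrays, 9.18 and 9.20, and the difference was -0.45 ± 0.20, not called, against 0.62 ± 0.19 in littermates. The knockout response minus that of littermates was -1.07 ± 0.28 in Ex3aERKO (adjusted p = 0.0108) and -0.94 ± 0.24 in ERaUtcKO (adjusted p = 0.00397), where the E2 arrays overlapped vehicle. Without the first E2 24 h array of Ex3aERKO the former was -0.96 and not called (adjusted p = 0.0512).

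Grb10, an inhibitor that binds the active receptor, rose with IGF1 early and with E2 late. In C57 mice it read 11.36, 11.15 and 11.01 under vehicle, 11.08, 11.09 and 11.22 at 2 h of E2, 11.64, 11.79 and 11.68 at 24 h of E2, and 11.97 and 11.81 at 2 h of IGF1. Only the 2 h E2 arrays among these overlapped vehicle. The differences over the sets were 0.92 ± 0.08 at 2 h of IGF1 (adjusted p = 2.54e-12), 0.42 ± 0.07 at 24 h of IGF1 (adjusted p = 1.57e-05) and 0.70 ± 0.07 at 24 h of E2 (adjusted p = 1.94e-10). At 2 h of E2 it was 0.14 ± 0.07 and not called (adjusted p = 0.15), but was called with arrays centred on their median (0.23, adjusted p = 0.0268) and without C57 vehicle replicate 1 (0.18, adjusted p = 0.0414). At 2 h E2 minus IGF1 was -0.78 ± 0.08 (adjusted p = 1.09e-10). In ERaUtcKO Grb10 read 9.03, 8.89 and 8.62 under vehicle and 10.50, 10.27 and 10.34 at 2 h of IGF1. That is a rise of 1.52 ± 0.11 (adjusted p = 3.81e-10), beside 1.15 ± 0.14 in Ex3aERKO (adjusted p = 1.11e-05). Under vehicle Grb10 was lower in Ex3aERKO than in littermates (-0.66 ± 0.14, adjusted p = 0.00948), a call lost without either littermate vehicle array or without vehicle replicate 2 of Ex3aERKO (adjusted p of 0.0514 to 0.107).

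Grb14, the related inhibitor, fell in all 4 wild-type comparisons. Grb14 in C57 mice read 8.04, 7.79 and 7.67 under vehicle, between 6.99 and 7.31 at 2 h of E2, 7.25 and 7.07 at 2 h of IGF1 and 7.71, 7.61 and 7.85 at 24 h of IGF1. The last group overlapped vehicle and the others did not. The differences over the sets were -0.88 ± 0.08 and -0.82 ± 0.08 at 2 h and 24 h of E2 (adjusted p = 4.54e-12 and 1.97e-11), -0.80 ± 0.09 at 2 h of IGF1 (adjusted p = 4.39e-10) and -0.24 ± 0.08 at 24 h of IGF1 (adjusted p = 0.0174). The last call was lost without the first vehicle array of the ERaUtcKO littermates (adjusted p = 0.0646) and with arrays centred on their median (-0.18, adjusted p = 0.0669). It was also lost with 1 fit of all arrays (adjusted p = 0.067) and with the adipocyte covariate (adjusted p = 0.0717). Within single sets the 24 h IGF1 fall was not called. It was -0.11 in C57 (adjusted p = 0.595), -0.29 in the Ex3aERKO littermates (adjusted p = 0.499) and -0.33 in the ERaUtcKO littermates (adjusted p = 0.178). In ERaUtcKO the vehicle arrays read 8.56, 8.26 and 8.58 and the IGF1 arrays 7.01, 6.97 and 6.57 at 2 h and 7.15, 7.41 and 7.08 at 24 h, with no overlap. The IGF1 differences were -1.62 ± 0.20 and -1.25 ± 0.20 there and -1.56 ± 0.21 and -0.96 ± 0.19 in Ex3aERKO, all called. With E2 Grb14 was called in neither knockout, but all 2 h arrays lay below vehicle in both. They read 7.72 to 8.22 against 8.26 to 8.58 in ERaUtcKO (-0.50) and 7.15 to 7.97 against 8.14 to 8.49 in Ex3aERKO (-0.76). At 24 h the E2 arrays lay below vehicle in Ex3aERKO (-0.30) and overlapped it in ERaUtcKO (-0.18). Under vehicle Grb14 was higher than in littermates in both knockouts, by 1.21 ± 0.21 in Ex3aERKO (adjusted p = 0.00308) and 1.05 ± 0.20 in ERaUtcKO (adjusted p = 0.00237), and no arrays overlapped. Among the members only Grb10 and Grb14 in Ex3aERKO and Igf1r and Grb14 in ERaUtcKO were called under vehicle, with 2.96% and 4.17% of all genes called.

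Pik3r1, the p85 regulatory subunit, was the member on which the 2 hormones differed most at 2 h. In C57 mice it read 14.78, 14.77 and 14.63 under vehicle, 13.72, 13.93 and 13.74 at 2 h of E2, 14.31, 14.32 and 14.27 at 24 h of E2, and 14.98 and 14.93 at 2 h of IGF1. The E2 arrays were all below vehicle and the IGF1 arrays all above it. In the Ex3aERKO littermates it read 13.60 and 13.48 under vehicle, 12.31, 12.56 and 12.01 at 2 h of E2 and 13.64, 14.003 and 13.82 at 2 h of IGF1, with the same order. In the ERaUtcKO littermates it read 14.04, 13.84 and 14.05 under vehicle, between 12.79 and 13.11 at 2 h of E2 and 14.04 and 14.37 at 2 h of IGF1, where IGF1 overlapped vehicle, as it did at 24 h. The E2 difference over the sets was -1.05 ± 0.07 at 2 h (adjusted p = 1.71e-15) and -0.39 ± 0.07 at 24 h (adjusted p = 1.38e-05). The IGF1 difference was 0.25 ± 0.08 at 2 h (adjusted p = 0.00876) and 0.18 ± 0.07 at 24 h (adjusted p = 0.0444), and quantile normalization turned the 24 h value to -0.08 and ended the 2 h call (0.18, adjusted p = 0.097). The 24 h call was also lost without any of 9 arrays (adjusted p of 0.0506 to 0.0977): vehicle replicates 2 or 3 or IGF1 24 h replicates 2 or 3 of C57, vehicle replicate 3 or IGF1 24 h replicate 1 of the Ex3aERKO littermates, and vehicle replicate 2 or IGF1 24 h replicates 1 or 3 of the ERaUtcKO littermates. With 1 fit of all arrays the 24 h IGF1 call was lost as well (adjusted p = 0.0628). Within single sets the IGF1 rise was not called at 2 h (adjusted p of 0.0561 to 0.398) or at 24 h (adjusted p of 0.0741 to 0.683). E2 minus IGF1 was -1.30 ± 0.08 at 2 h (adjusted p = 2.09e-17). The stromal markers were low on the same 2 h E2 arrays of wild types, and their part in this difference was not tested. In neither knockout was Pik3r1 called with either hormone. At 2 h of E2 both Ex3aERKO arrays, 13.86 and 14.22, lay above both vehicle arrays, 13.63 and 13.83, a difference of 0.31 ± 0.21 that was not called, opposite in sign to the -1.24 ± 0.19 of littermates. The knockout response minus that of littermates was 1.56 ± 0.29 in Ex3aERKO (adjusted p = 0.00142) and 0.87 ± 0.16 in ERaUtcKO (adjusted p = 0.000407).

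**Figure D3:**
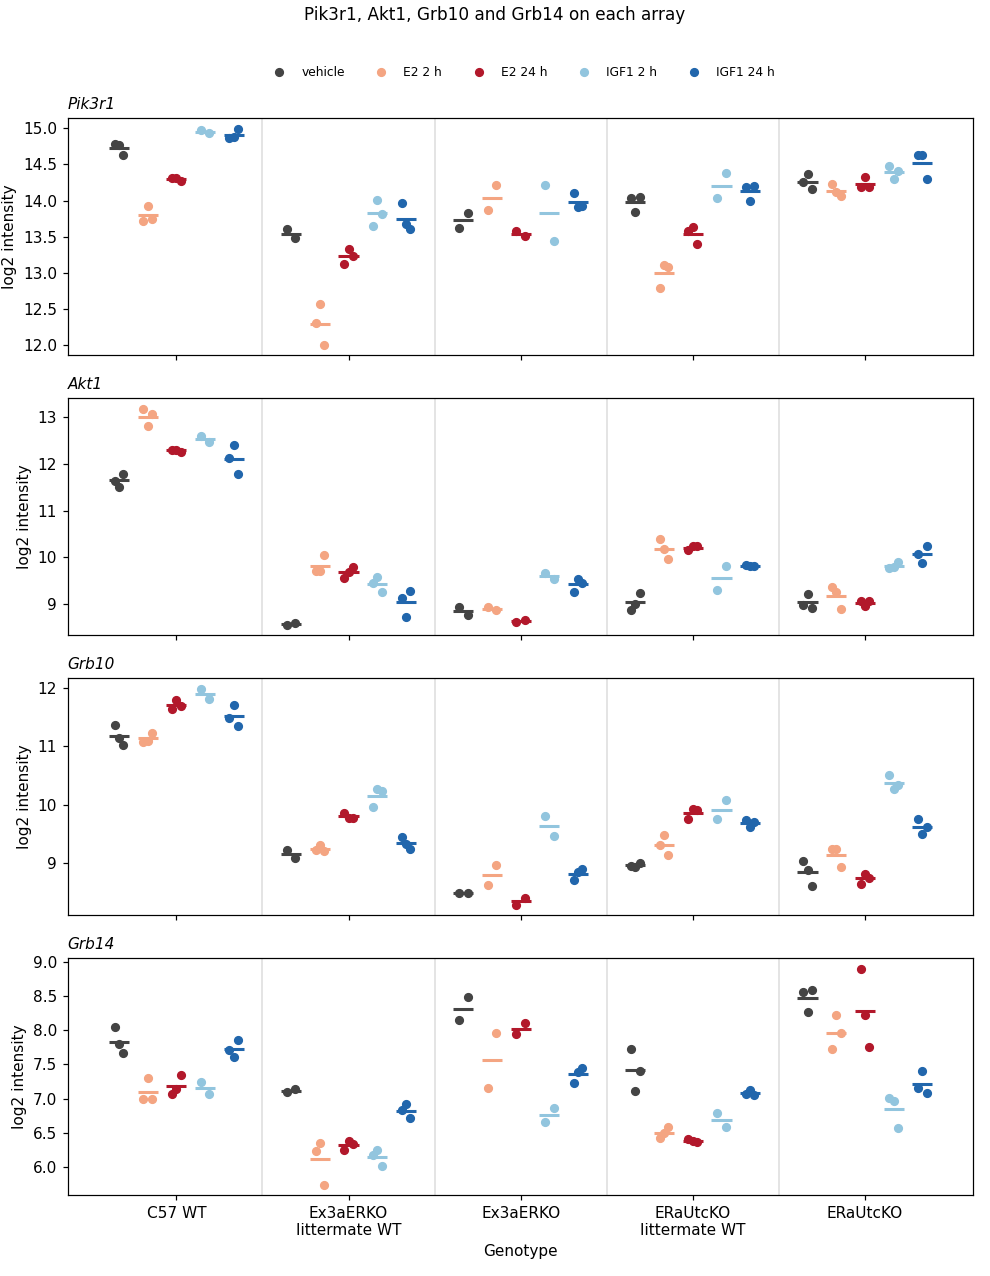
Log2 intensity of Pik3r1, Akt1, Grb10 and Grb14 (panels from top to bottom, each with its own scale) on each of the 68 arrays (points), by genotype and coloured by treatment, with bars for group means. The E2 2 h points of Pik3r1 lie below vehicle in the 3 wild-type genotypes, and the IGF1 2 h points of Grb14 lie below vehicle in all 5.

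Pik3ca, the p110 catalytic subunit, fell in all 4 comparisons. Its C57 arrays ranged from 12.43 to 12.53 under vehicle, 12.24 to 12.42 at 2 h of E2 and 11.84 to 12.17 over the other hormone arrays, so vehicle was above them all. The differences over the sets were -0.15 ± 0.05 and -0.52 ± 0.05 with E2 (adjusted p = 0.00831 and 3.16e-12) and -0.52 ± 0.05 and -0.39 ± 0.05 with IGF1 (adjusted p = 6.16e-11 and 1.81e-08). With arrays centred on their median, the first was -0.06 and not called (adjusted p = 0.331). Within single sets the 2 h E2 difference was not called in C57 (-0.16, adjusted p = 0.122). Nor was it in the Ex3aERKO littermates (-0.04, adjusted p = 0.895), where arrays overlapped vehicle. In the ERaUtcKO littermates it was -0.24 with no overlap. Pik3ca fell with IGF1 in both knockouts (-0.69 ± 0.15 and -0.49 ± 0.13 at 2 h and 24 h in Ex3aERKO, -0.34 ± 0.09 and -0.32 ± 0.09 in ERaUtcKO). The Ex3aERKO calls were lost at 2 h without IGF1 replicate 2 (adjusted p = 0.056) and at 24 h without vehicle replicate 2 or IGF1 replicate 1 (adjusted p of up to 0.151). The 24 h call in ERaUtcKO was lost with arrays centred on their median (-0.23, adjusted p = 0.0519).

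Akt1, the kinase downstream of PI3-kinase, rose in every wild-type comparison. In C57 mice it read 11.64, 11.52 and 11.79 under vehicle, 13.18, 12.81 and 13.06 at 2 h of E2, 12.31, 12.31 and 12.26 at 24 h of E2, 12.60 and 12.48 at 2 h of IGF1 and 12.14, 12.41 and 11.79 at 24 h of IGF1. The 2 h E2 arrays were the highest, and only the last group reached a vehicle value. The differences over the sets were 1.25 ± 0.11 and 0.97 ± 0.11 with E2 (adjusted p = 9.55e-13 and 4.68e-10) and 0.77 ± 0.12 and 0.57 ± 0.11 with IGF1 (adjusted p = 6.79e-07 and 4.69e-05). E2 exceeded IGF1 by 0.48 ± 0.11 at 2 h (adjusted p = 0.000909) and 0.41 ± 0.10 at 24 h (adjusted p = 0.00249). In ERaUtcKO it read 8.99, 9.22 and 8.91 under vehicle, 9.36, 9.26 and 8.90 at 2 h of E2 and 10.07, 9.89 and 10.24 at 24 h of IGF1. IGF1 arrays there were all higher and E2 arrays overlapped vehicle. The IGF1 rise was 0.78 ± 0.14 and 1.02 ± 0.14 in ERaUtcKO and 0.76 ± 0.16 and 0.57 ± 0.15 in Ex3aERKO, all called, though the last was lost without vehicle replicate 3 of Ex3aERKO (adjusted p = 0.101). The E2 response of the knockout minus that of littermates was -1.19 ± 0.22 and -1.32 ± 0.22 in Ex3aERKO and -1.01 ± 0.19 and -1.18 ± 0.19 in ERaUtcKO (2 h and 24 h, adjusted p from 5.01e-05 to 0.00133).

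In the knockouts members were called with IGF1 and not with E2. With E2, limma called 0 of 10 in Ex3aERKO at 2 h and 24 h and 0 of 10 in ERaUtcKO at both times, with 0.149%, 0%, 0.491% and 0% of all genes called. At an unadjusted p under 0.05 the counts were 2, 1, 2 and 0. The nearest was Grb14 at 2 h in Ex3aERKO (-0.76 ± 0.21, adjusted p = 0.233), which was called without E2 2 h replicate 3 (-1.16, adjusted p = 0.0293). With IGF1 the calls were 7 of 10 at 2 h and 7 at 24 h in Ex3aERKO (backgrounds 15.7% and 18.6%), and 9 and 7 in ERaUtcKO (backgrounds 29.3% and 32.4%). In Ex3aERKO the 24 h count was 4 without either vehicle array or without IGF1 24 h replicate 1.

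The test of the difference itself compared each knockout's response with that of its littermates. For E2 it called 4 of 10 at 2 h and 5 at 24 h in Ex3aERKO (backgrounds 9.43% and 16.8%) and 3 and 8 in ERaUtcKO (backgrounds 13.8% and 32.9%). Irs2, Pik3r1 and Akt1 at 2 h, and Igf1r, Irs2, Shc1, Grb10 and Akt1 at 24 h, were called in both. In Ex3aERKO the 24 h count was 3 without E2 24 h replicate 1. For IGF1 limma called 0 of 10 in either knockout at either time (Ex3aERKO backgrounds 0% and 0.0133%, ERaUtcKO 0.511% and 0.0498%), and at an unadjusted p under 0.05 the counts were 1 and 3 in Ex3aERKO and 2 and 1 in ERaUtcKO. A missed threshold does not show equal responses: the 95% interval of the Irs2 difference at 2 h of IGF1 was -0.99 to 1.48 for Ex3aERKO and, for ERaUtcKO, -0.48 to 0.95. The largest IGF1 differences were Irs2 at 24 h in Ex3aERKO (-1.48 ± 0.56, adjusted p = 0.496) and Grb14 at 24 h in ERaUtcKO (-0.93 ± 0.28, adjusted p = 0.234).

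**Figure D4:**
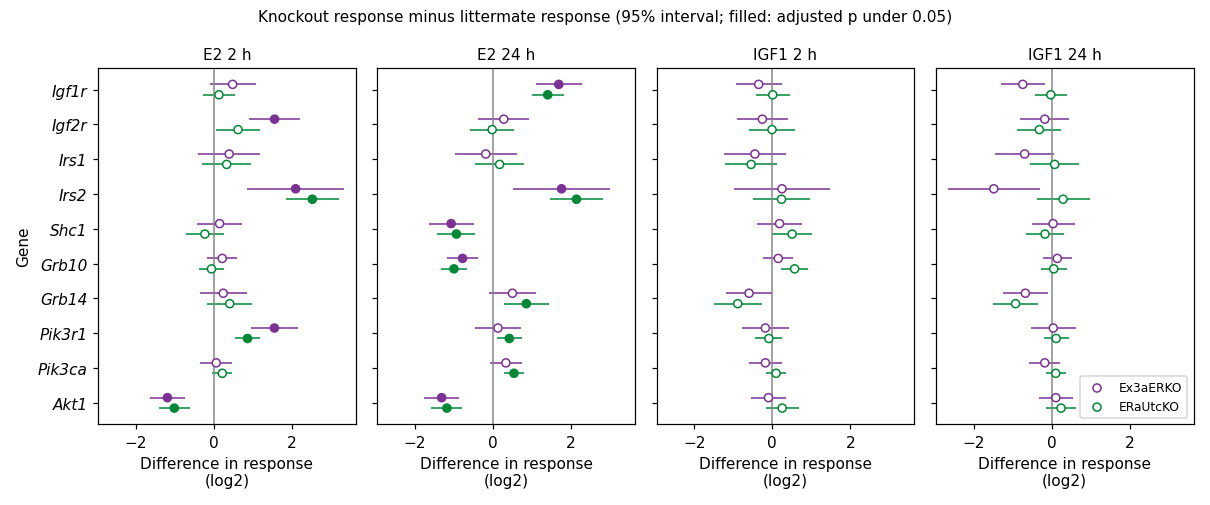
Response of each knockout minus the response of its littermates (log2, horizontal axis, 95% interval as bars) for the 10 members (rows) in a panel for each hormone and time, Ex3aERKO in purple and ERaUtcKO in green, filled where the adjusted p is under 0.05. Filled points appear only in the E2 panels, with Irs2 at 2.10 and 2.53 at 2 h.

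When E2 and IGF1 were compared directly in wild types, 7 of 10 members were called at 2 h and 7 at 24 h, with 22% and 28.1% of all genes called. For all genes E2 was higher in 9.6% and lower in 12.4% at 2 h, and higher in 15.3% and lower in 12.9% at 24 h. E2 gave the lower value at 2 h for Igf2r (-0.57 ± 0.10), Shc1 (-0.44 ± 0.10), Grb10 and Pik3r1, and the higher for Igf1r, Pik3ca (0.36 ± 0.05) and Akt1. At 24 h it gave the lower value for Igf1r, Grb14 (-0.58 ± 0.08), Pik3r1 (-0.57 ± 0.07) and Pik3ca (-0.14 ± 0.05), and the higher for Shc1 (0.24 ± 0.09), Grb10 (0.28 ± 0.07) and Akt1. Doses and routes differ between the hormones, so these values set 2 treatments side by side. The Pik3ca and Shc1 calls at 24 h had adjusted p of 0.0235 and 0.0396, and were lost with centred arrays (adjusted p = 0.0684) and quantile normalization (adjusted p = 0.214). The former was lost without E2 24 h replicate 1 or IGF1 24 h replicate 2 of the Ex3aERKO littermates or E2 24 h replicate 3 of the ERaUtcKO littermates (adjusted p of 0.05 to 0.0592). The latter was lost without E2 24 h replicate 2 or IGF1 24 h replicates 1 or 3 of C57, E2 24 h replicates 2 or 3 or IGF1 24 h replicates 1 or 2 of the Ex3aERKO littermates, or E2 24 h replicates 1 or 3 of the ERaUtcKO littermates (adjusted p of 0.0505 to 0.104).

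Around the members, 55 other genes of the pathway were measured out of 66 listed. With E2, 24 rose and 19 fell at 2 h (40% of all genes called), and 23 rose and 18 fell at 24 h (56.2%). With IGF1, 25 rose and 12 fell at 2 h (35.9%) and 15 rose and 16 fell at 24 h (40.9%). Their medians were 0.08, 0.03, 0.08 and 0.04, near 0, whereas the medians over all genes lay between -0.07 and -0.04. Of the 17 other receptors and adaptors, Gab1, a docking adaptor, fell in all 4 comparisons (-1.45 ± 0.11 at 2 h of E2, -1.61 ± 0.12 at 2 h of IGF1). Grb7, of the same family as Grb10 and Grb14, fell at 2 h of E2 (-0.87 ± 0.09) and of IGF1 (-0.83 ± 0.10) and rose at 24 h of E2 (1.37 ± 0.09). Of the 15 other PI3-kinase, AKT and mTOR genes, the regulatory subunit Pik3r3 rose by 1.49 ± 0.13 at 24 h of E2 and by 1.39 ± 0.14 and 1.40 ± 0.13 at 2 h and 24 h of IGF1. Mlst8, a subunit of the mTOR complexes, rose at 24 h of E2 (1.45 ± 0.10) and of IGF1 (0.95 ± 0.10), and Rictor fell there (-0.71 ± 0.05 and -0.54 ± 0.05).

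Among 18 brakes on the pathway, 8 rose and 7 fell at 2 h of E2, and 6 rose and 9 fell at 24 h. Of all genes 17.2% rose and 22.8% fell at 2 h of E2, and 24.5% and 31.7% at 24 h. With IGF1, 5 brakes rose and 6 fell at 2 h, and 2 rose and 7 fell at 24 h. The shares of all genes were 16.9% higher and 19% lower at 2 h, and 19.3% and 21.6% at 24 h. Ptpn1 and Ptpn2, phosphatases that act on receptor kinases and their partners, rose at 2 h of E2 (2.10 ± 0.07 and 1.08 ± 0.07) and of IGF1 (0.99 ± 0.08 and 0.97 ± 0.07). Pik3ip1, an inhibitor of PI3-kinase, fell at 2 h of E2 (-1.74 ± 0.10) and of IGF1 (-1.78 ± 0.11), and Deptor, an inhibitor of mTOR, fell at 24 h of both (-1.40 ± 0.10 and -1.06 ± 0.10). Of 5 RAS and ERK genes 4 rose and 0 fell at 2 h of each hormone (Map2k1 by 2.31 ± 0.08 with E2). At 24 h of E2 4 rose and 1 fell, and at 24 h of IGF1 3 rose and 1 fell. The shares of all genes are those given for the brakes. In the knockouts limma called 0 of the 55 with E2 at either time, when 0.149% and 0% of all genes were called in Ex3aERKO and 0.491% and 0% in ERaUtcKO. At an unadjusted p under 0.05 there were 5 and 4 in Ex3aERKO and 8 and 1 in ERaUtcKO. With IGF1 at 2 h and 24 h it called 20 and 19 in Ex3aERKO (backgrounds 15.7% and 18.6%) and 35 and 35 in ERaUtcKO (backgrounds 29.3% and 32.4%).

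Across the 20 differences of a hormone group from its own vehicle, Igf1r was most like Clk4 (Pearson correlation 0.966), Pamr1 (0.962) and Sparcl1 (0.956), and Irs2 most like Ccpg1 (0.936), Herpud2 (0.924) and Arsk (0.919). The 4 differences of a genotype share its vehicle arrays, so the points are not independent and no p is given. Among the members the closest pair over the same points was Shc1 with Grb10 (0.843), followed by Igf1r with Pik3ca (0.786), and the most opposed was Irs2 with Akt1 (-0.774).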

How the data were processed

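Uterine RNA from 68 mouse samples was measured on microarrays with 72688 probe sets. The table holds log2 intensities deposited by the authors. The normalization behind them is not given in the sources used, and an earlier step could have compressed or shifted the differences. No further scaling was applied.

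Probe sets were named from GEO's platform annotation: 30604 had 1 symbol, 2146 several and 39938 were not listed. The probe set with the highest mean stood for a gene, which gave 30142 genes. Each member has 1 probe set. No 2 arrays were identical over all probe sets, and correlations within groups lay between 0.984 and 0.997. Both C57 arrays at 2 h of IGF1 held the same value for Igf1r (11.6021) and the same value for Igf2r (11.2095).

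The test was limma's (version 3.58.1, R 4.3.3, lmFit and eBayes), with p-values adjusted over all genes by the Benjamini-Hochberg method, two-sided, threshold 0.05. Wild types were fitted together with set and treatment as terms (42 arrays, 35 residual degrees of freedom), and each knockout with its littermates. The labels do not say that replicates are separate animals, so p-values measure the spread between these samples, which may be technical. On simulated data the wild-type fit for E2 at 2 h recovered 92% of genes changed by 0.5 and 98% of those changed by 1. The Ex3aERKO response difference for IGF1 at 24 h recovered 2% of those changed by 0.5 and 50% of those changed by 1. The simulation left 29942 of 30142 genes unchanged, whereas 40% were called at 2 h of E2 in the data. These shares may therefore not carry over to the data.

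The text names all 10 members, Esr1, up to 2 of the largest rises and falls called in each role of the other pathway genes per wild-type response, and the 3 genes most correlated with Igf1r and with Irs2. Members and lists were chosen with earlier results of these data known. Of 66 other pathway genes listed, 55 were analysed and the rest are not analysed here.

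Alternatives were arrays centred on their median, quantile normalization, a filter on low values, 1 fit of all arrays and each set alone. Others were a replicate block, the mean of a gene's probe sets and an intensity trend in the prior variance. The rest were the adipocyte marker mean as a covariate (chosen after seeing the data) and each array left out in turn.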

Additional observations from a re-analysis of the deposited data

Results flagged for a closer look

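The results below were picked out because the response differed between mouse groups by a test of the difference itself, with limma and adjustment over all genes. No explanation was tested for any of them.

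Between the 3 wild-type sets, the Irs2 response to IGF1 at 24 h differed (adjusted p = 0.00122).

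Ex3aERKO and littermates differed at 2 h of E2 (knockout response minus littermate response, log2) for Igf2r by 1.56, Irs2 by 2.10, Pik3r1 by 1.56 and Akt1 by -1.19. At 24 h of E2 they differed for Igf1r by 1.69, Irs2 by 1.76, Shc1 by -1.07, Grb10 by -0.78 and Akt1 by -1.32. The Irs2 values are those whose calls depended on many arrays, as given with the Irs2 results.

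ERaUtcKO and littermates differed at 2 h of E2 for Irs2 by 2.53, Pik3r1 by 0.87 and Akt1 by -1.01. At 24 h of E2 they differed for Igf1r by 1.40, Irs2 by 2.14, Shc1 by -0.94, Grb10 by -1.0, Grb14 by 0.85, Pik3r1 by 0.42, Pik3ca by 0.54 and Akt1 by -1.18. The Grb14 call was lost without littermate vehicle replicate 1, ERaUtcKO vehicle replicate 2 or ERaUtcKO E2 24 h replicate 1 (adjusted p of 0.0606 to 0.0759), with arrays centred on their median (adjusted p = 0.0588) and with quantile normalization (adjusted p = 0.0573). The Pik3r1 call was lost without any of 9 arrays (adjusted p of 0.0537 to 0.114): littermate vehicle replicates 1 or 3, littermate E2 24 h replicates 1 or 3, ERaUtcKO vehicle replicates 1 or 3, or any ERaUtcKO E2 24 h array. It was also lost with arrays centred on their median (0.30, adjusted p = 0.204), with 1 fit of all arrays (adjusted p = 0.0768), with the replicate block (adjusted p = 0.0505) and with the adipocyte covariate (adjusted p = 0.0585).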

How the results depend on the processing

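Of 2380 member values recomputed under alternatives other than leaving out an array, 2281 had the same direction and side of the threshold, 72 lost and 26 gained a call, and 1 turned (Pik3r1 in wild types at 24 h of IGF1, -0.0771 under quantile normalization). The 2281 include all 280 values from the mean of probe sets and all 280 from the intensity trend. The mean of probe sets could not change a member's own value, since each member has 1 probe set. Of 9060 with an array left out, 8932 were the same, 90 lost and 38 gained a call. The cause was not tested.

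Counts of members called that moved by over 1.5 times were these. For IGF1 at 24 h the Ex3aERKO littermates alone gave 1 (9 over the sets). For E2 against IGF1, ERaUtcKO littermates alone gave 3 at 2 h (7 over the sets), and C57 and ERaUtcKO littermates alone gave 2 each at 24 h (7), where fewer arrays enter each fit. Between sets, E2 at 24 h gave 1 with arrays centred, in place of 0, and IGF1 at 24 h gave 2 with arrays centred and 2 with the filter on low values, in place of 1.

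Replicate numbers are shared between groups, but same-numbered arrays did not deviate together: 8 of 26 pairs in the C57 set, 8 of 92 in the Ex3aERKO set and 16 of 126 in the ERaUtcKO set correlated above 0.1, and 3 of 14, 8 of 25 and 7 of 29 arrays correlated best with their own number. With the replicate block, E2 at 24 h gave 1 between sets. Ex3aERKO at 24 h of IGF1 gave 5 in place of 7, and the E2 24 h differences from littermates gave 4 in place of 5 in Ex3aERKO and 7 in place of 8 in ERaUtcKO.

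With an array left out in turn, the wild-type counts ran from 8 to 9 and 9 to 10 for E2 at 2 h and 24 h, 9 to 10 and 7 to 10 for IGF1, and 7 to 7 and 5 to 8 for E2 against IGF1. Between sets they ran from 0 to 1 for E2 at 24 h and 1 to 3 for IGF1 at 24 h. In Ex3aERKO they ran from 0 to 1 for E2 at 2 h, 6 to 7 and 4 to 7 for IGF1, 3 to 4 and 3 to 5 for the E2 differences from littermates, and 1 to 2 under vehicle. In ERaUtcKO they ran from 8 to 9 and 7 to 8 for IGF1, 3 to 3 and 6 to 8 for the E2 differences, and 2 to 3 under vehicle. The other counts stayed at 0.

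Centring arrays on their median raised the share of higher calls among all genes called from 43.1% to 60.2% and 43.7% to 56.5% for E2 at 2 h and 24 h, and from 47.1% to 63.4% and 47.2% to 60.9% for IGF1. It moved the median of all genes in the ERaUtcKO difference at 24 h of E2 from 0.13 to 0.01. Grb14, nearest background, is the member whose low values are least precise.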
